A study of Mus musculus with 61 samples.

Results

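The 8 genes described here encode the lysosomal proteases Ctsb, Ctsl, Ctsz, Ctsd and Tpp1, the glycosidase subunit Hexa and the lysosomal membrane proteins Lamp1 and Lamp2. They were taken by gene symbol from 24979 genes listed in the window and genotype tables, and all 8 were present in both and passed the low-count filter in both. SLAM-seq was run on wild-type mouse MII oocytes and on embryos from in vitro fertilisation. In this method new transcripts take up 4-thiouridine (4SU), an analogue of uridine, which is alkylated before sequencing. Embryos were cultured in KSOM medium with 2 mM 4SU for 6 h, and a window library held 10 embryos; for 0-6hpi the sperm and the cumulus-oocyte complexes were also in 4SU. Polyadenylated RNA was copied with a Smart-seq2 protocol. The window groups were MII, 0-6hpi, 6-12hpi, 12-18hpi, 18-24hpi, 24-30hpi, 30-36hpi, 48-54hpi, 70-76hpi and 90-96hpi (hpi, hours post insemination), with 3 libraries each. The genotype groups were Klf17 KO (3 libraries), Klf17 maternal KO (mKO, 3 libraries), Klf17 paternal KO (pKO, 2 libraries) and WT control embryos (ctrl, 3 libraries), all 4SU-labelled and collected at a stage given as M2C. The labels do not describe the Klf17 alleles.

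A lysosome is an acidic, membrane-bound compartment in which hydrolases degrade material that arrives by endocytosis and autophagy. Its soluble enzymes are made in the endoplasmic reticulum, tagged in the Golgi with mannose 6-phosphate and released inside the compartment, while heavily glycosylated LAMP proteins line its membrane. In the early mouse embryo autophagy starts soon after fertilisation and is part of the turnover of maternal proteins, and many lysosomal genes are known targets of the transcription factor TFEB.

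Gene counts per library ran from 7395193 to 13301570 in the windows and from 14080264 to 23018252 in the genotypes. Levels are CPM (counts scaled to a fixed library size) on library totals scaled by TMM factors, given as mean ± SD over the libraries of a group, and differences are log2 fold changes (log2FC) with their SE and adjusted p from edgeR's quasi-likelihood test. A gene is called risen or fallen at an adjusted p below 0.05. The sources used here do not say whether counting was restricted to reads that carry T-to-C conversions, so a level may include RNA made before labelling, and they do not say how replicates were obtained, so the p-values cover no more than the spread among libraries. A level is a share of the library, so fewer cells of a kind and less of an RNA per cell cannot be told apart. Summed stage markers followed the labels: the summed level of 6 oocyte markers was 2.22 to 49.4 CPM at 90-96hpi and 7977 to 8371 CPM in MII, that of 6 blastocyst markers was 4855 to 8435 CPM at 90-96hpi and 52.5 to 89.8 CPM in MII, and 6 markers of the 2-cell embryo peaked at 1634 to 1914 CPM at 18-24hpi. Within the oocyte list Bmp15, Zp2 and Nlrp5 were higher at 12-18hpi than in MII, and Gdf9, Mos and Zp3 were lower. Bmp15 had 4294 CPM at 12-18hpi and 1372 CPM in MII, and Gdf9 had 836 and 5091 CPM.

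The 8 lysosomal genes did not move as a block. By group mean on TMM-scaled totals, Ctsb, Ctsl, Ctsz and Lamp2 climbed through the windows that follow 12-18hpi and were highest at 48-54hpi, whereas Ctsd and Lamp1 were highest at 70-76hpi and Hexa and Tpp1 at 90-96hpi. The highest window of Ctsb depends on the scaling. Its 30-36hpi and 48-54hpi libraries overlap, and with CPM from total counts its means there were 1313 and 1000 CPM. Tpp1 stood apart, as it was nearly gone at 48-54hpi, when the other 7 were at 20.7% or more of their highest group mean. Summed over the 8 genes, the level was 406 ± 45.5 CPM in MII, 280.1 ± 26.5 CPM at 12-18hpi, 7849 ± 60.7 CPM at 48-54hpi and 1757 ± 406 CPM at 90-96hpi. These groupings by highest window were made after the values were seen and are descriptions.

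**Figure D1:**
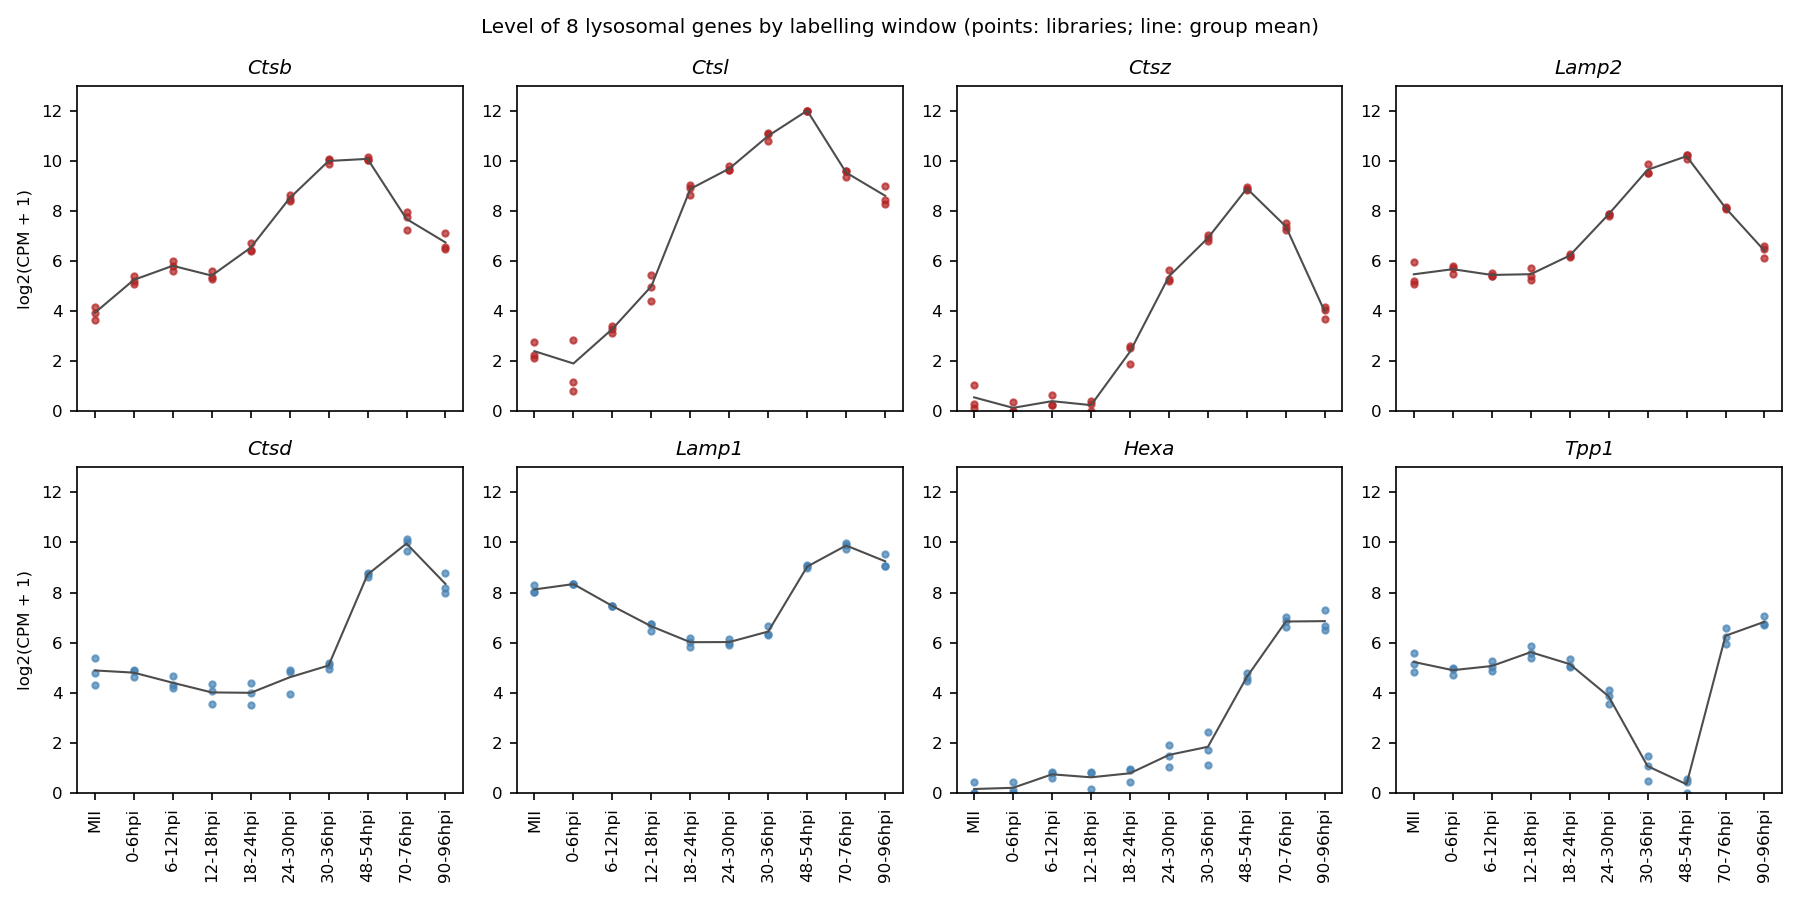
Level of each of the 8 lysosomal genes as log2(CPM + 1) on the vertical axis against the labelling window on the horizontal axis; points are single libraries, 3 per group, and the line joins group means. Genes highest at 48-54hpi by group mean on TMM-scaled totals are in red (Ctsb, Ctsl, Ctsz, Lamp2). Those highest later are in blue (Ctsd, Lamp1, Hexa, Tpp1). Tpp1 is at 113 CPM at 90-96hpi and 0.268 CPM at 48-54hpi.

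Step by step, fewer of the 8 genes, and also smaller shares of all tested genes, were called before 18-24hpi than from then on. In 0-6hpi against MII 1 of the 8 rose and 0 fell, where 12.9% of all tested genes rose and 8.28% fell. In 6-12hpi against 0-6hpi 2 rose (4.73% of all genes) and 1 fell (2.93%), and in 12-18hpi against 6-12hpi 1 rose (7.11%) and 1 fell (6.09%). From 18-24hpi on, at least 5 of the 8 changed in every step. In 18-24hpi against 12-18hpi 4 rose (18.1%) and 1 fell (14.9%). In 24-30hpi against 18-24hpi 5 rose (21.0%) and 1 fell (24.4%), and in 30-36hpi against 24-30hpi 5 rose (21.0%) and 1 fell (29.0%). In 48-54hpi against 30-36hpi 6 rose (28.7%) and 1 fell (33.3%). In 70-76hpi against 48-54hpi 4 rose (21.6%) and 4 fell (21.8%), and in 90-96hpi against 70-76hpi 0 rose (20.1%) and 6 fell (19.5%).

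Some of these steps depend on the scaling. With total count scaling 4 of the 8 genes rose and 2 fell in 48-54hpi against 30-36hpi, and 7 rose and 1 fell in 24-30hpi against 18-24hpi, so which step had the most rises changed with it. Without any one 48-54hpi library 4 rose in the first of these steps, and without 24-30hpi library 3 the number rising in the second was 3. Each fit without a library also set the low-count filter, the TMM factors and the spread anew. A call lost in such a fit therefore need not come from the left-out value itself, and the parts were not tested apart. In 48-54hpi against 30-36hpi the median log2FC of all genes was -0.66 with total count scaling and -0.19 with TMM, and the share of calls that were higher was 32.5% and 46.2%. In 24-30hpi against 18-24hpi the median was 0.28 with total counts and -0.12 with TMM, and higher calls were 69.0% and 46.3%. The share of higher calls also moved with total counts in 0-6hpi against MII (78.3%, against 60.9% with TMM and 49.4% with DESeq2 size factors), 12-18hpi against 6-12hpi (43.5%, against 53.8% with TMM), 70-76hpi against 48-54hpi (61.7%, against 49.8%) and 30-36hpi against 12-18hpi (55.4%, against 44.8%).

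Ctsb (ENSMUSG00000021939 in the table; chr14:63122462-63145923, GRCm38) encodes cathepsin B, a cysteine protease that cuts both inside proteins and at their carboxyl end. Its level, which is one of polyadenylated RNA, rose in the first embryo window, with 33.5, 41.7 and 36.3 CPM at 0-6hpi, against 14.4, 16.8 and 11.7 CPM in MII. The libraries of both groups did not overlap, and the log2FC was 1.37 (SE 0.18, adjusted p = 3.22e-07). At 12-18hpi it had 42.0 ± 4.98 CPM, against 55.4 ± 7.37 CPM at 6-12hpi, with no overlap of libraries. That difference was not called (log2FC -0.40, SE 0.16, adjusted p = 0.113), but it was called lower with total count scaling (-0.48, adjusted p = 0.0401) and in a fit of both groups alone (-0.46, adjusted p = 0.0163). Ctsb then rose in 3 further steps. It had 84.6, 104 and 87.2 CPM at 18-24hpi, against 40.8, 37.7 and 47.4 CPM at 12-18hpi (log2FC 1.13, SE 0.16, adjusted p = 9.19e-07). It had 354, 342 and 400.0 CPM at 24-30hpi (log2FC 1.99 against 18-24hpi, SE 0.16, adjusted p = 4.8e-12) and 932, 1051 and 1097 CPM at 30-36hpi (log2FC 1.49 against 24-30hpi, SE 0.16, adjusted p = 1.17e-09). Each of these groups lies wholly above the one before it. At 48-54hpi Ctsb had 1149, 1058 and 1055 CPM, which overlaps the 30-36hpi libraries (log2FC 0.08, SE 0.15, adjusted p = 0.657), and with total count scaling that step was a fall (-0.39). It then fell to 205 ± 50.0 CPM at 70-76hpi (log2FC -2.41, SE 0.16, adjusted p = 2.44e-14) and then to 107 ± 26.8 CPM at 90-96hpi (log2FC -0.94 against 70-76hpi, SE 0.16, adjusted p = 9.4e-06). The smaller rise to 55.4 ± 7.37 CPM at 6-12hpi, against 37.2 ± 4.18 CPM at 0-6hpi (log2FC 0.58, SE 0.16, adjusted p = 0.022), was lost without 6-12hpi library 1 (adjusted p = 0.0927) or 3 (0.232) and without 0-6hpi library 1 (0.162) or 3 (0.139).

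Ctsl (ENSMUSG00000021477; chr13:64361890-64370772), which encodes the endopeptidase cathepsin L, had, per length, the highest group mean of the 8 genes, at 48-54hpi. It was at 31.0 ± 11.2 CPM at 12-18hpi and 4.29 ± 1.27 CPM in MII (log2FC of 12-18hpi against MII 2.85, SE 0.39, adjusted p = 3.09e-06). Its largest single step came next, with 491, 528 and 398 CPM at 18-24hpi, against 20.4, 29.9 and 42.8 CPM at 12-18hpi. The fold was 15.2 (log2FC 3.93, SE 0.35, adjusted p = 6.39e-09), and the lowest 18-24hpi library is above every earlier one. It rose to 2059.5 ± 240.5 CPM at 30-36hpi, against 831 ± 45.3 CPM at 24-30hpi (log2FC 1.31, SE 0.30, adjusted p = 0.00111), and had 4132, 4150.4 and 4145 CPM at 48-54hpi. The 3 libraries at 48-54hpi are almost equal and all above the 1786, 2156 and 2237 CPM at 30-36hpi. That step had a log2FC of 1.01 (SE 0.30, adjusted p = 0.00628), which was not called with total count scaling (0.53, adjusted p = 0.105) or without 48-54hpi library 1 (0.74, 0.0644), 2 (0.76, 0.0589) or 3 (0.69, 0.0802). The filter, TMM factors and spread were set anew in each such fit, and what lowered the log2FC was not tested. Ctsl fell 5.57-fold to 787, 783 and 661 CPM at 70-76hpi (log2FC -2.48, SE 0.32, adjusted p = 1.17e-06).

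The first rises of Ctsl came at low levels. It had 20.4, 29.9 and 42.8 CPM at 12-18hpi, against 9.70, 8.89 and 7.89 CPM at 6-12hpi. These groups do not overlap, the log2FC was 1.81 (SE 0.36, adjusted p = 0.00122), and the call held under all 12 alternatives run for it (log2FC 1.45 to 1.94, highest adjusted p 0.0138). The calls of 3 other steps were lost without some single libraries. The rise to 8.83 ± 0.909 CPM at 6-12hpi, against 2.77 ± 3.06 CPM at 0-6hpi (log2FC 1.74, SE 0.44, adjusted p = 0.0144), was lost without 6-12hpi library 1 (adjusted p = 0.0558) and 0-6hpi library 1 (0.0952) or 3 (0.0829), and was 3.07 without 0-6hpi library 2, which had 6.28 CPM. Without that library 0-6hpi was also below MII (log2FC -2.09, against -0.70 with it, which edgeR did not call, adjusted p = 0.357, but called without the low-count filter, 0.0240). The rise to 831 ± 45.3 CPM at 24-30hpi, against 473 ± 67.0 CPM at 18-24hpi (log2FC 0.81, SE 0.30, adjusted p = 0.0323), was lost with DESeq2 (adjusted p = 0.0515) and without 24-30hpi library 2 (0.0786) or 3 (0.0618). The fall to 391 ± 105 CPM at 90-96hpi, against 744 ± 71.6 CPM at 70-76hpi (log2FC -0.93, SE 0.30, adjusted p = 0.018), was lost without 90-96hpi library 2 (adjusted p = 0.0855) or 3 (0.0606) and without 70-76hpi library 2 (0.0511).

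Ctsz (ENSMUSG00000016256; chr2:174427494-174439039) encodes cathepsin Z, a carboxypeptidase. It was close to undetected in the first 4 groups, with 2, 10 and 1 reads in MII, 0, 3 and 0 reads at 0-6hpi, 2, 6 and 2 reads at 6-12hpi and 2, 0 and 3 reads at 12-18hpi. edgeR called no step among these 4 groups. For 0-6hpi against MII it gave a log2FC of -2.21 (SE 0.91, adjusted p = 0.0814), but DESeq2's Wald test called that step lower (-2.46, adjusted p = 0.0322), as did edgeR without the low-count filter (-2.21, 0.0384), without 0-6hpi library 2 (-5.23, 0.0123) and without MII library 3 (-2.67, 0.0330); these values rest on 3 reads at 0-6hpi and 13 in MII. It rose to 41, 44 and 22 reads at 18-24hpi (log2FC 4.37 against 12-18hpi, SE 0.54, adjusted p = 4e-08, and 5.02 without 12-18hpi library 3), a size that rests on 5 reads in the earlier group. From there the counts are ample. It had 36.1, 38.3 and 48.7 CPM at 24-30hpi, 109.6, 131 and 122 CPM at 30-36hpi and 478, 495 and 461 CPM at 48-54hpi. The log2FC of each of these groups against the one before was 3.27 (SE 0.26, adjusted p = 2.21e-12), 1.56 (SE 0.21, adjusted p = 1.5e-07) and 1.99 (SE 0.21, adjusted p = 3.01e-10). It then fell to 166 ± 17.5 CPM at 70-76hpi (log2FC -1.52, SE 0.21, adjusted p = 1.6e-07) and 11.2-fold further to 17.1, 11.9 and 15.5 CPM at 90-96hpi (log2FC -3.49, SE 0.23, adjusted p = 3.19e-14). At 90-96hpi Ctsz was at 3.10% of its highest group mean, the lowest such share of the 8 genes at that window.

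Lamp2 (ENSMUSG00000016534; chrX:38399647-38456460) encodes a LAMP protein that is needed for the fusion of autophagosomes with lysosomes and for chaperone-mediated autophagy. Its group means lay between 42.8 and 50.3 CPM in the first 4 groups, and edgeR called no step among them; 0-6hpi against MII (log2FC 0.21, adjusted p = 0.415) was called without MII library 3 (0.51, adjusted p = 0.0153). It rose to 70.0, 73.4 and 77.9 CPM at 18-24hpi, against 41.4, 37.1 and 52.5 CPM at 12-18hpi (log2FC 0.76, SE 0.16, adjusted p = 0.000316). It had 225, 238 and 239 CPM at 24-30hpi (log2FC 1.66 against 18-24hpi, SE 0.16, adjusted p = 1.57e-10) and 735, 730.4 and 947 CPM at 30-36hpi (log2FC 1.78 against 24-30hpi, SE 0.16, adjusted p = 2.15e-11). The libraries of successive groups do not overlap from 12-18hpi to 48-54hpi. The last rise, to 1204, 1088 and 1224 CPM at 48-54hpi (log2FC 0.54 against 30-36hpi, SE 0.15, adjusted p = 0.00241), was lost when totals were used for scaling (0.07, adjusted p = 0.703) and also without 48-54hpi library 1 (0.26, 0.210), 2 (0.34, 0.089) or 3 (0.19, 0.355). Lamp2 fell to 285, 279.6 and 272 CPM at 70-76hpi (log2FC -2.07, SE 0.16, adjusted p = 5e-13) and then to 88.6, 68.5 and 96.4 CPM at 90-96hpi (log2FC -1.72 against 70-76hpi, SE 0.16, adjusted p = 8.48e-11).

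Lamp1 (ENSMUSG00000031447; chr8:13159161-13175338), which encodes the other of the pair of abundant lysosomal membrane glycoproteins, showed a fall and a rise. Per length it was the highest of the 8 genes in MII, and it had 323, 319 and 325 CPM at 0-6hpi, against 262, 261 and 311 CPM in MII (log2FC 0.21, SE 0.13, adjusted p = 0.249, called only with total count scaling among the alternatives, at 0.38). It fell in the next 3 steps, to 177, 175 and 174 CPM at 6-12hpi (log2FC -0.88, SE 0.13, adjusted p = 5.71e-06), 99.5 ± 11.4 CPM at 12-18hpi (log2FC -0.82, SE 0.13, adjusted p = 1.81e-05) and 63.7 ± 7.77 CPM at 18-24hpi (log2FC -0.64, SE 0.13, adjusted p = 0.000157). Thus Lamp1 and Lamp2 moved in opposite directions in 18-24hpi against 12-18hpi, a difference between the genes that has no test of its own here. Lamp1 was at 64.0 ± 5.03 CPM at 24-30hpi (log2FC 0.01 against 18-24hpi, SE 0.13, adjusted p = 0.979), a step that was called a rise with total count scaling (0.42, adjusted p = 0.0050), and slightly higher at 30-36hpi (86.0 ± 11.9 CPM, log2FC 0.43, SE 0.13, adjusted p = 0.00609, lost without 30-36hpi library 2, adjusted p = 0.0735). The main rise gave 529.9, 542 and 502 CPM at 48-54hpi, against 78.9, 99.7 and 79.3 CPM at 30-36hpi. It was 6.10-fold (log2FC 2.61, SE 0.13, adjusted p = 4.11e-18), without overlap. Lamp1 was highest at 70-76hpi with 863, 1005 and 955 CPM (log2FC 0.84 against 48-54hpi, SE 0.13, adjusted p = 9.82e-07) and fell to 748, 536 and 539.6 CPM at 90-96hpi (log2FC -0.63, SE 0.13, adjusted p = 0.000102).

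Ctsd (ENSMUSG00000007891; chr7:142375910-142387827) encodes cathepsin D, the main aspartic protease of lysosomes. Its level was low up to 30-36hpi. It had 392, 429 and 439.9 CPM at 48-54hpi, against 30.2, 35.0 and 33.7 CPM at 30-36hpi, with no overlap. This 12.7-fold rise had a log2FC of 3.67 (SE 0.28, adjusted p = 9.02e-12). The rise went on to 808, 1129 and 1043 CPM at 70-76hpi (log2FC 1.24, SE 0.25, adjusted p = 0.000193), and a fall to 433, 252 and 286 CPM at 90-96hpi followed (log2FC -1.62, SE 0.25, adjusted p = 9e-06). edgeR called no single step of Ctsd up to 30-36hpi. The step 6-12hpi against 0-6hpi was called lower in a fit of both groups alone (log2FC -0.44, adjusted p = 0.0316), and 30-36hpi against 24-30hpi (0.48, adjusted p = 0.136) was called higher without the low-count filter (0.54, 0.00678) and without 24-30hpi library 1 (0.78, 0.0316). In 24-30hpi against 18-24hpi it had 27.3, 14.4 and 28.7 CPM against 14.7, 10.4 and 19.8 CPM (log2FC 0.66, SE 0.28, adjusted p = 0.0592), a step that was called under 9 of the 12 alternatives run for it. Over longer spans Ctsd had 15.1 ± 4.30 CPM at 12-18hpi, against 28.6 ± 11.1 CPM in MII (log2FC -0.92, SE 0.28, adjusted p = 0.00992), and this fall was lost without MII library 2 (adjusted p = 0.111). It rose to 33.0 ± 2.48 CPM at 30-36hpi, against 15.1 ± 4.30 CPM at 12-18hpi (log2FC 1.12, SE 0.28, adjusted p = 0.000831, and 1.72 without 12-18hpi library 3).

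Hexa (ENSMUSG00000025232; chr9:59539540-59565109) encodes the alpha subunit of beta-hexosaminidase, an enzyme that removes a terminal sugar from the ganglioside GM2. It had 4, 0 and 1 reads at 0-6hpi and 0, 3 and 0 reads in MII, and edgeR called no step up to 18-24hpi. In 6-12hpi against 0-6hpi, with 7, 8 and 5 reads at 6-12hpi, edgeR gave a log2FC of 2.05 (SE 0.83, adjusted p = 0.154), while DESeq2's Wald test called a rise (2.12, adjusted p = 0.0488). At 24-30hpi 19, 10 and 33 reads were counted, against 3, 8 and 7 at 18-24hpi (log2FC 1.38, SE 0.54, adjusted p = 0.0365). That small rise was lost in a fit of both groups alone (adjusted p = 0.0804), without 24-30hpi library 3 (0.230) and without 18-24hpi library 1 (0.0865). The main rises were later. Hexa had 21.3, 23.1 and 26.9 CPM at 48-54hpi, against 4.33, 2.24 and 1.15 CPM at 30-36hpi (log2FC 3.20, SE 0.37, adjusted p = 2.47e-09). It had 97.2, 116 and 128 CPM at 70-76hpi (log2FC 2.26 against 48-54hpi, SE 0.32, adjusted p = 3.94e-07). At 90-96hpi the 155, 89.2 and 101 CPM overlap those of 70-76hpi (log2FC 0.01, SE 0.30, adjusted p = 0.996), and Hexa was the member whose level changed least in that last step.

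Tpp1 (ENSMUSG00000030894; chr7:105744811-105752282) encodes tripeptidyl peptidase 1, a serine protease that removes tripeptides from the amino end of proteins. Its group means lay between 28.8 and 48.1 CPM up to 18-24hpi, with 39.2, 31.3 and 32.4 CPM at 18-24hpi and 27.2, 34.8 and 47.4 CPM in MII, and edgeR called no step among the first 5 groups. For 12-18hpi against 6-12hpi (48.1 ± 8.51 and 32.5 ± 4.48 CPM) the log2FC was 0.57 (SE 0.25, adjusted p = 0.136), and the rise was called in a fit of both groups alone (0.51, adjusted p = 0.0217). It then nearly vanished. Tpp1 had 16.1, 10.8 and 13.5 CPM at 24-30hpi (log2FC -1.35 against 18-24hpi, SE 0.26, adjusted p = 5.47e-05) and 1.11, 0.387 and 1.78 CPM at 30-36hpi (log2FC -3.68 against 24-30hpi, SE 0.35, adjusted p = 9.42e-11). At 48-54hpi 5, 0 and 3 reads were counted, against 11, 5 and 17 reads at 30-36hpi (log2FC -1.88, SE 0.62, adjusted p = 0.00855). The 48-54hpi and 30-36hpi libraries overlap, and this last fall was lost without 30-36hpi library 3 (adjusted p = 0.0969) and was -2.85 without 48-54hpi library 1. By 70-76hpi the level was above that of the oocyte in every library, at 60.2, 74.5 and 94.5 CPM. The log2FC of 8.06 against 48-54hpi (SE 0.42, adjusted p = 3.86e-17, and 8.78 without 48-54hpi library 1) rests on 8 reads in the earlier group. At 90-96hpi Tpp1 had 131, 105 and 103 CPM (log2FC 0.56 against 70-76hpi, SE 0.24, adjusted p = 0.062), and this step was called with total count scaling, in a fit of both groups alone and without 70-76hpi library 3.

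**Figure D2:**
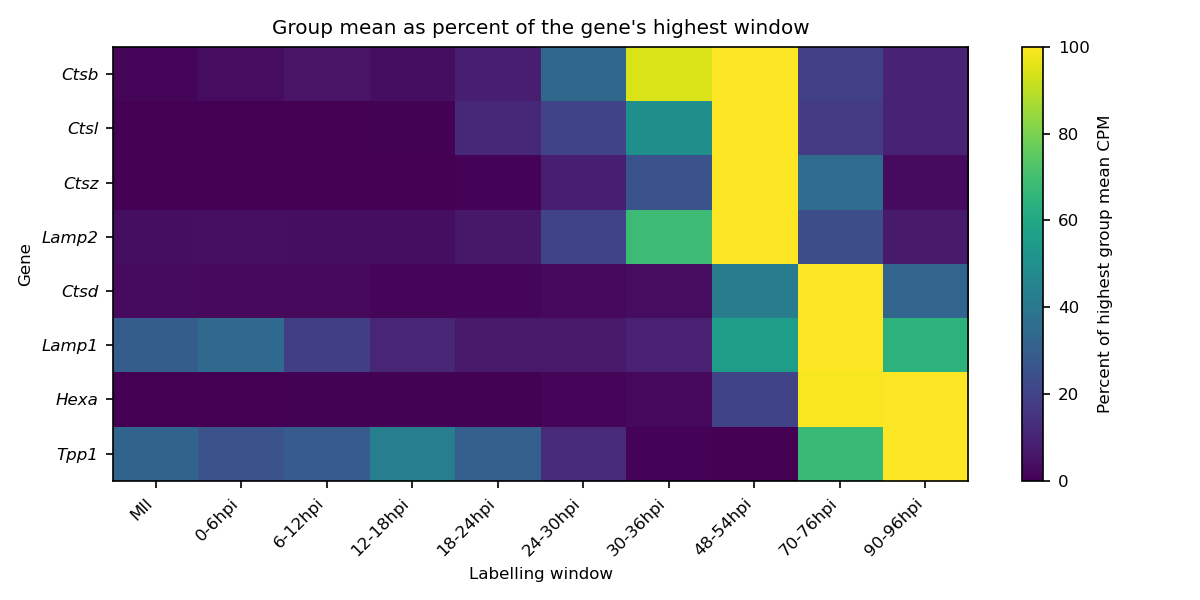
Group mean CPM of each of the 8 lysosomal genes (rows) in each window (columns) as a percent of that gene's highest group mean, from dark (0) to bright (100). Ctsb and Lamp2 are already at 94.4% and 68.6% at 30-36hpi, Ctsl at 49.7% and Ctsz at 25.2%, while Ctsd, Lamp1, Hexa and Tpp1 are all under 10% in that window.

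Ordered by level, some neighbouring windows could not be parted by their libraries. Of the 9 neighbouring pairs in each gene's order, the libraries overlapped in 2 for Ctsl, 3 for Ctsb, Ctsz and Lamp1, 4 for Lamp2, 5 for Tpp1, 6 for Hexa and 7 for Ctsd. The overlaps lie mostly among the low early groups, but those of Ctsb at 48-54hpi and 30-36hpi, Ctsd and Lamp1 at 90-96hpi and 48-54hpi, and Hexa at 90-96hpi and 70-76hpi concern high groups. Per kilobase of the length that the table lists, the order of the genes at 48-54hpi was Ctsl (672 CPM per kb), Ctsz (332), Lamp2 (325), Lamp1 (235), Ctsb (229), Ctsd (198), Hexa (11.9) and Tpp1 (0.0726). In MII Lamp1 led at 125 CPM per kb and Ctsd followed at 13.5 CPM per kb. At 90-96hpi Lamp1 led again at 273 CPM per kb, followed by Ctsd at 152, Ctsl at 63.4 and Hexa at 57.6 CPM per kb.

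Across the whole course every one of the 8 genes ended above the oocyte. In 90-96hpi against MII 8 rose and 0 fell, where 42.6% of all genes rose and 38.4% fell. The low-count filter used all 30 window libraries, and Ctsz and Hexa had 13 and 3 reads in MII. They were tested because of later windows with higher counts, so hardly any outcome but a rise was open to them. The log2 fold changes were 6.51 for Ctsl, 4.93 for Ctsz (6.50 without MII library 2), 3.50 for Ctsd, 2.89 for Ctsb, 1.63 for Tpp1, 1.13 for Lamp1 and 0.96 for Lamp2, the highest adjusted p being 1.87e-06 for Lamp2. No fold is given for Hexa, which had 115 ± 35.1 CPM at 90-96hpi and 3 reads in MII. The path to that common end differed. In 12-18hpi against MII 2 rose (Ctsb and Ctsl, 27.9% of all genes) and 2 fell (Ctsd and Lamp1, 15.9%). In 30-36hpi against 12-18hpi 6 rose (33.3%) and 1 fell (41.0%), with log2 fold changes of 9.19 for Ctsz (10.20 without 12-18hpi library 3), 6.05 for Ctsl (6.74 without 12-18hpi library 3), 4.61 for Ctsb, 4.20 for Lamp2, 2.22 for Hexa (2.95 without 12-18hpi library 3 and 2.88 without library 1), 1.12 for Ctsd and -5.52 for Tpp1. The filter bears on this count too, as Ctsz and Hexa had 5 and 14 reads at 12-18hpi. The size for Tpp1 rests on 33 reads at 30-36hpi. The remaining gene, Lamp1, had -0.21 in this span (adjusted p = 0.137), was called lower without 30-36hpi library 2 (-0.33, adjusted p = 0.0352), was higher with total count scaling (0.35), and lay between 0.11 and 0.25 without any one 12-18hpi library. In 90-96hpi against 30-36hpi 4 rose (33.3%) and 4 fell (37.8%). Those that fell were Ctsb (-3.27), Lamp2 (-3.25), Ctsz (-3.03) and Ctsl (-2.40), and those that rose were Tpp1 (6.75), Hexa (5.48), Ctsd (3.30) and Lamp1 (2.82). The sizes for Tpp1 and Hexa rest on 33 and 83 reads at 30-36hpi.

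How the genes followed each other over the 10 window groups matched the grouping by highest window only in part; the values are a description of log2(mean CPM + 1) values, which share libraries and a common time order. Pearson's r was between 0.86 and 0.96 for each pair among Ctsb, Ctsl, Ctsz and Lamp2. It was 0.95 for Ctsd and Hexa, 0.85 for Ctsd and Lamp1 and 0.72 for Lamp1 and Hexa. Ctsz was also near Ctsd (0.70) and Hexa (0.68), genes that are highest later than it is. For Tpp1, highest at 90-96hpi like Hexa, r was 0.20 with Lamp1, 0.10 with Hexa, -0.01 with Ctsd, and between -0.79 (Lamp2) and -0.51 (Ctsl) with the 4 genes highest at 48-54hpi. Among 9039 other genes with a highest group mean of at least 20 CPM, those most like Ctsl were Prps1 (r = 0.995) and Gcsh (r = 0.992), and those most like Lamp2 were Tcirg1 (r = 0.995), which encodes a subunit of the vacuolar proton pump, and Appbp2 (r = 0.993). Those most like Ctsb were Hinfp (r = 0.990) and Hmox2 (r = 0.988), and for Ctsz they were H2-Q7 (r = 0.993) and Pdxk (r = 0.992). For Ctsd they were Atad3a (r = 0.988) and Aarsd1 (r = 0.987), for Lamp1 Dhx35 (r = 0.992) and Stub1 (r = 0.974), and for Hexa Spi1 (r = 0.995) and Arvcf (r = 0.993). Tpp1 had the weakest best match, Ceacam10 at r = 0.977, followed by Cdc123 at r = 0.960.

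Because lysosomal genes are known to carry the CLEAR motif, bound by TFEB, promoter windows from RefSeq (GRCm38.p6, 250 bases before to 50 after the start site) were searched for its core CACGTG, which reads the same on both strands. Windows were found for 7 of the 8 genes, and Ctsb is named only. A longer form of the motif, which holds this core, was also searched for. The longer form was in none of the 7 windows and in 107 of all 32851 windows (0.326%). The core was in 3 of the 7 (Lamp1 4 times, Ctsd 2 times and Ctsl 1 time) and in 7.15% of all 32851 windows. The 4 stretches that hold it are shown 5′ to 3′ on the gene's strand, with the core in capitals, because these are the only such windows among the 7. Another annotated Ctsl transcript starts upstream, so its window lies inside the RefSeq span of the gene. A match is a description of letters and not a site.
Lamp1, chr8:13159073-13159160 (+), cores starting 61 to 15 bases before the start site: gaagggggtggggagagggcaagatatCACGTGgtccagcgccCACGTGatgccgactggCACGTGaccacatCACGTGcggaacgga
Ctsd, chr7:142387893-142387952 (-), core starting 98 bases before: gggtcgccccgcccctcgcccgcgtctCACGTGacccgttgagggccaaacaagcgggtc
Ctsd, chr7:142388040-142388077 (-), core starting 245 bases before: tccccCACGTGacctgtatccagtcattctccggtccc
Ctsl, chr13:64370724-64370770 (-), core starting 236 bases before: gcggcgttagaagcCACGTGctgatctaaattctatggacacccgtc

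The 8 genes can be set beside 114 other lysosomal genes in 6 lists, of which 111 were tested in the windows. In 12-18hpi against MII 46 rose and 17 fell, with a median log2FC of 0.47, against 0.20 for the 8 genes and 0.33 for all genes. These were 41.4% and 15.3% of the 111, where 27.9% of all tested genes rose and 15.9% fell, so the share that fell was near that of all genes. The list of soluble enzymes and activators had 19 of 41 rising (46.3%) and 3 falling (7.32%), with a median of 1.02. All 3 cystatins rose in this span and in 30-36hpi against 12-18hpi. Atp6v1g1, a subunit of the proton pump, had 245 ± 6.94 CPM at 12-18hpi, against 18.0 ± 2.78 CPM in MII (log2FC 3.76, adjusted p = 7.52e-19). M6pr, a mannose 6-phosphate receptor (2.75), Atp6v0c, the ring subunit of the pump (2.74), and Lamtor1, which tethers the Ragulator complex to lysosomes (2.49), also rose. Npc1, which exports cholesterol from lysosomes, fell to 47.7 ± 3.56 CPM at 12-18hpi, against 412 ± 27.6 CPM in MII (log2FC -3.11, adjusted p = 3.81e-16), and Igf2r (-3.03), Rragc (-1.83) and Atp6ap2 (-1.70) fell too.

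In 30-36hpi against 12-18hpi 47 of the 111 rose and 38 fell (median 0.26, against 3.21 for the 8 genes and -0.29 for all genes), where 33.3% of all tested genes rose and 41.0% fell. Among soluble enzymes 24 of 41 rose (58.5%) and 8 fell (19.5%), with a median of 1.84. Among membrane proteins 8 of 24 rose (33.3%) and 10 fell (41.7%), shares near those of all genes (median -0.48). Among V-ATPase subunits 4 of 16 rose and 8 fell (25.0% and 50.0%, median -0.31), and among the TFEB family and mTORC1 at the lysosome 4 of 17 rose and 9 fell (23.5% and 52.9%, median -0.57). In the sorting list 4 of 10 rose and 3 fell. The lists were not tested against each other. Ctsc, the dipeptidyl peptidase cathepsin C, had 1007 ± 63.7 CPM at 30-36hpi, against 2.86 ± 1.75 CPM at 12-18hpi (log2FC 8.44, adjusted p = 2.98e-11). Gm2a, the activator protein that presents GM2 to beta-hexosaminidase (6.85), and the membrane protein Cd63 (6.84) rose as well. Those that fell most were Rraga (-4.99), Arsb (-4.36), Atp6v1f (-3.19) and Acp2 (-3.18).

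In 90-96hpi against 30-36hpi 59 of the 111 rose and 28 fell (median 0.57, against 0.21 for the 8 genes and -0.20 for all genes). These were 53.2% and 25.2% of the 111, where 33.3% of all tested genes rose and 37.8% fell. Tfeb, the regulator named above, had 82.5 ± 10.96 CPM at 90-96hpi, against 0.856 ± 0.332 CPM at 30-36hpi (log2FC 6.53, adjusted p = 4.3e-16). Atp6v1f (4.88) and Acp5 (4.27) were other leading rises. Ctsc (-3.48) fell in this span, as did Fnip2 (-2.38) and Rragc (-2.00).

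In 90-96hpi against MII 68 of the 111 rose and 28 fell (median 1.76, against 3.20 for the 8 genes and 0.27 for all genes). These were 61.3% and 25.2% of the 111, where 42.6% of all tested genes rose and 38.4% fell. Soluble enzymes had 31 of 41 rising and 5 falling (median 3.74), V-ATPase subunits 10 of 16 and 4 (1.07), sorting genes 6 of 10 and 3 (2.07), membrane proteins 11 of 24 and 7 (0.35), and the TFEB and mTORC1 list 7 of 17 rising and 9 falling (-0.51). The shares that rose among membrane proteins (45.8%) and in the TFEB and mTORC1 list (41.2%) were near that of all genes. All 3 cystatins, inhibitors of cysteine cathepsins, rose in this span. Cstb had 566 ± 24.3 CPM at 90-96hpi, against 0.578 ± 0.516 CPM in MII (log2FC 9.90, adjusted p = 5.26e-22). At 90-96hpi Tfeb had 82.5 ± 10.96 CPM and Neu1 79.8 ± 4.74 CPM, and in MII each had 1 read. The largest falls were those of Arsb (-5.08), Ppt2 (-4.71), Rragc (-4.40) and Rraga (-4.39).

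**Figure D3:**
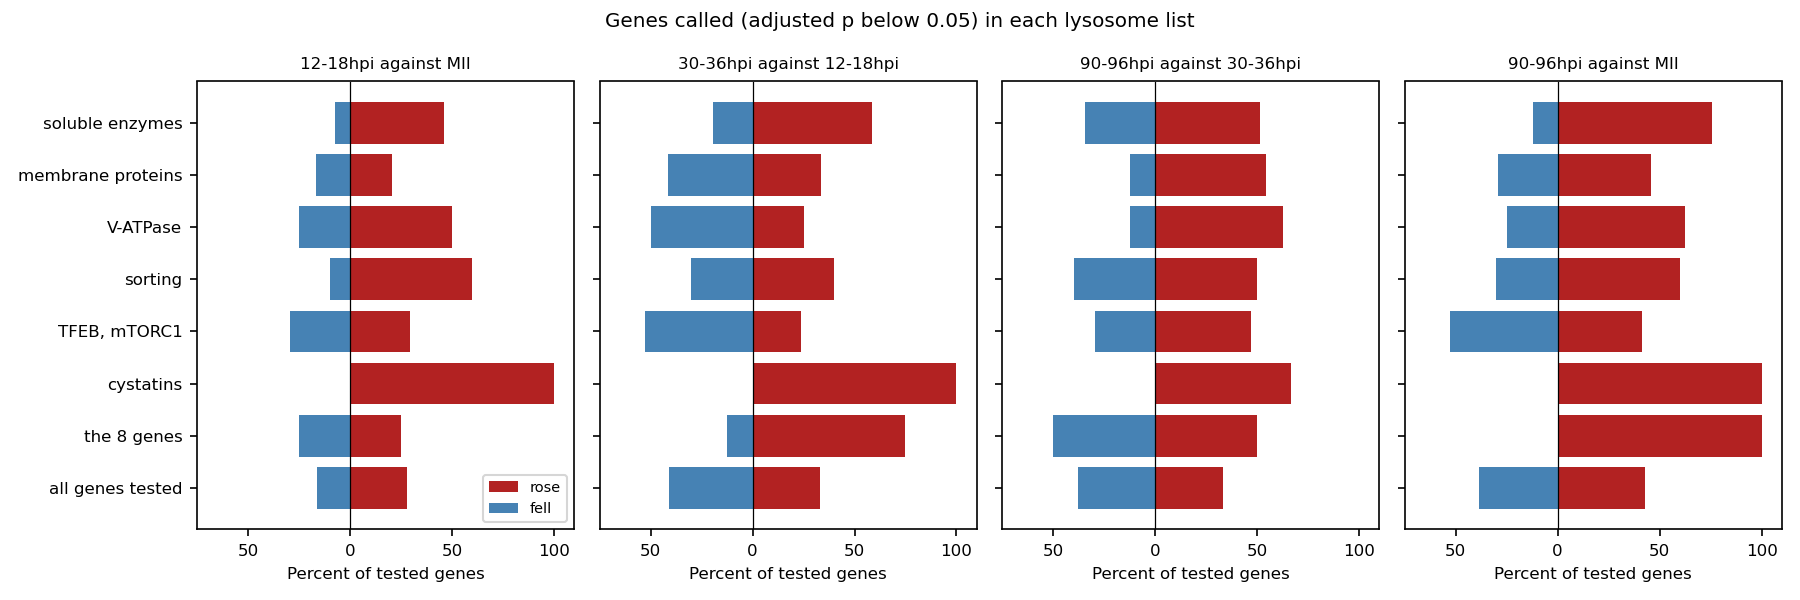
Percent of tested genes called risen (red, to the right of 0) or fallen (blue, to the left of 0) in each lysosome list, in the 8 genes and in all tested genes, for 4 spans of development. In 90-96hpi against MII all 8 genes rose, as did 31 of 41 soluble enzymes, against 42.6% of all tested genes. Of the 8 genes, Ctsz and Hexa had 13 and 3 reads in MII and were tested because of later windows.

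The genotype libraries were made to test the function of Klf17, a Kruppel-like transcription factor, at the M2C stage. Klf17 itself had 673, 603 and 728 CPM in the libraries labelled KO, 359, 845 and 794 CPM in mKO, 812 and 1015 CPM in pKO and 596, 805 and 746 CPM in ctrl, so its counts did not separate the labels (log2FC of KO against ctrl -0.10, adjusted p = 0.869, and of mKO -0.10, adjusted p = 0.954). The sources used here do not say which bases were deleted, and reads outside a deletion would still be counted. Mitochondrial genes took 5.92% to 11.4% of reads in the libraries labelled KO, 4.19% to 5.82% in mKO, 3.73% to 5.63% in pKO and 3.23% to 4.18% in ctrl. Of the stage markers, the 6 oocyte genes summed to 2716 to 3262 CPM in the libraries labelled KO and 1547 to 2177 CPM in ctrl, and the 6 blastocyst genes to 89.9 to 142 CPM in the libraries labelled KO and 167 to 184 CPM in ctrl. The 6 markers of the 2-cell embryo summed to 1136 to 1190 CPM in the libraries labelled KO and 749 to 1110 CPM in ctrl. The part of these differences in the results below was not tested.

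In the libraries labelled KO against ctrl 1 of the 8 genes rose (1.82% of all genes) and 1 fell (6.31%). Ctsb fell, with 522, 538 and 492 CPM in the libraries labelled KO, against 1208, 1505 and 1418 CPM in ctrl. These do not overlap, and the level was 2.66-fold lower in the libraries labelled KO (log2FC -1.41, SE 0.36, adjusted p = 0.026). The call was lost without KO library 1 (adjusted p = 0.0858), 2 (0.109) or 3 (0.0812) and without ctrl library 2 (0.0952) or 3 (0.0862), while the log2FC stayed between -1.41 and -1.32 in these fits. Tpp1 rose, with 20.0, 26.3 and 14.1 CPM in the libraries labelled KO, against 10.0, 4.15 and 1.39 CPM in ctrl. Its log2FC of 1.96 (SE 0.59, adjusted p = 0.0474) was not called with total count scaling (adjusted p = 0.0519), without KO library 1 (0.100), 2 (0.160) or 3 (0.0655), or without ctrl library 2 (0.176) or 3 (0.168), and was 2.86 without ctrl library 1. In the windows, over the steps from 18-24hpi to 30-36hpi, Ctsb rose and Tpp1 fell. Ctsl, Ctsz and Lamp2 rose over those steps too. In the libraries labelled KO against ctrl their log2 fold changes were negative and not called. A link between the window steps and the genotype differences was not tested.

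The other 6 genes were not called in that comparison. Ctsl had 1954 ± 441 CPM in the libraries labelled KO and 2633 ± 297 CPM in ctrl (log2FC -0.43, SE 0.26, adjusted p = 0.322). Lamp1 had 45.9, 97.0 and 72.6 CPM in the libraries labelled KO, all below the 108, 146 and 98.0 CPM in ctrl (log2FC -0.71, SE 0.39, adjusted p = 0.268). Lamp2 (-0.32, SE 0.29), Ctsz (-0.32, SE 0.44), Ctsd (0.18, SE 0.42) and Hexa (-0.79, SE 0.88) had overlapping libraries, with adjusted p from 0.51 to 0.828.

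In mKO and in pKO against ctrl edgeR called 0 of the 8 genes and 0 of all tested genes (0.0% in each direction). At an unadjusted p below 0.05 there were 2 of the 8 and 1243 of all genes in mKO and 0 of the 8 and 476 of all genes in pKO, and DESeq2 called 32 and 2 genes. The 2 in mKO were Ctsb and Lamp2. Ctsb had 322, 1238 and 673 CPM in mKO, against 1208, 1505 and 1418 CPM in ctrl (log2FC -0.89, SE 0.35, adjusted p = 0.645), and was called without mKO library 2 (-1.47, adjusted p = 0.0417). mKO library 1, the lowest in Ctsb, was also the lowest of its group in Ctsd, Ctsz, Lamp1 and Hexa, and mKO libraries 1 and 2 had the lowest correlation within any group (r = 0.913). Lamp2 had 499.7, 549.5 and 346 CPM in mKO, all below the 862, 652 and 733 CPM in ctrl (log2FC -0.69, SE 0.29, adjusted p = 0.645). Tpp1 had 12.3, 9.00 and 12.4 CPM in mKO and 2.15 and 4.08 CPM in pKO (log2FC against ctrl 1.12, SE 0.57, and -0.73, SE 0.65). In pKO the log2 fold changes of the other 7 genes lay between -0.19 and 0.26.

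**Figure D4:**
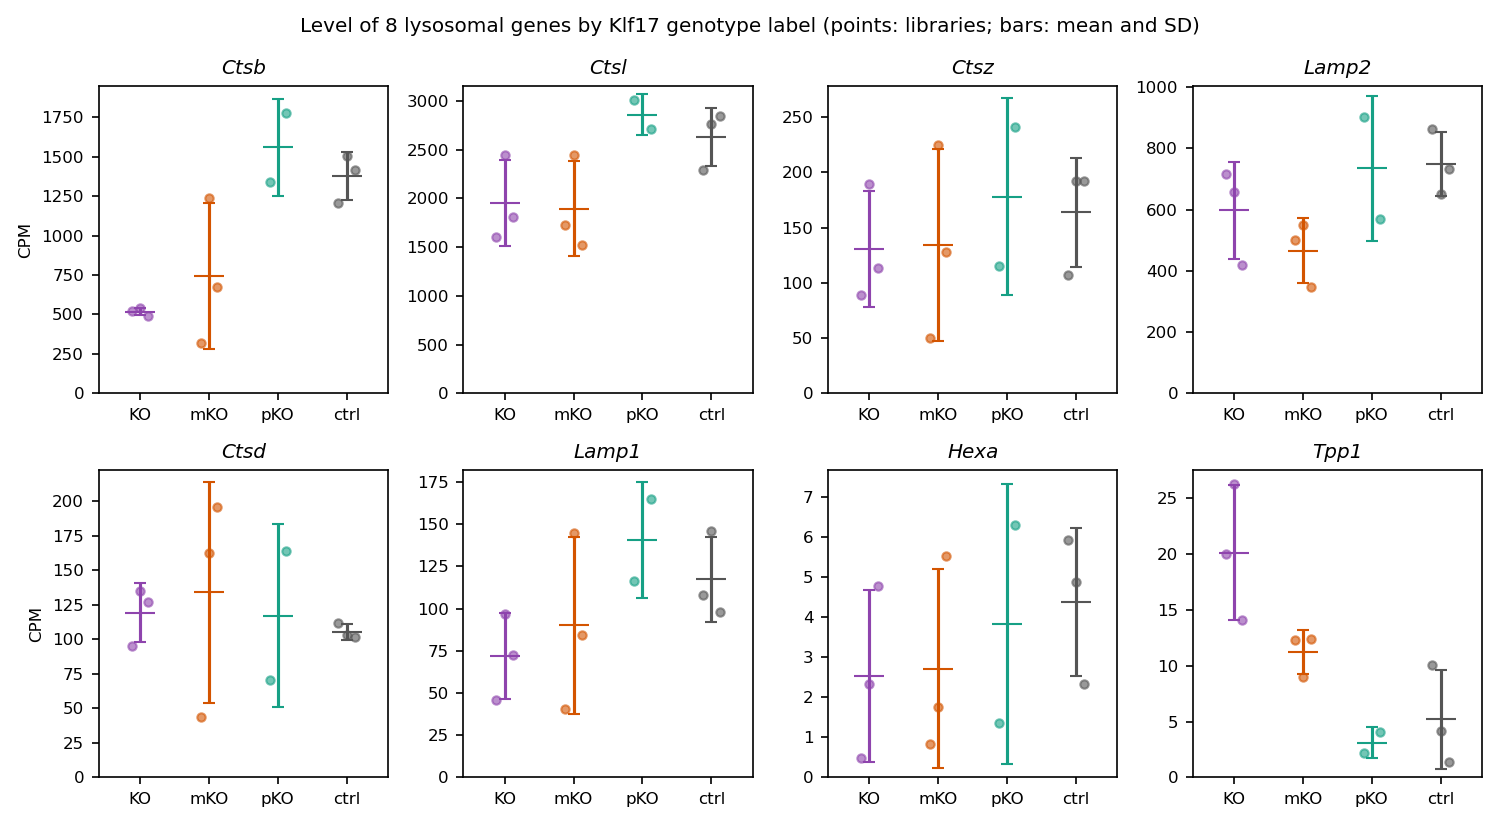
Level in CPM of each of the 8 lysosomal genes in the libraries labelled KO, mKO, pKO and ctrl (left to right); points are libraries, and bars are the mean and SD. Ctsb lies between 492 and 538 CPM in the libraries labelled KO and between 1208 and 1505 CPM in ctrl, and Tpp1 is at 14.1 to 26.3 CPM in the libraries labelled KO and 1.39 to 10.0 CPM in ctrl.

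Of the 113 other lysosomal genes tested in the genotypes, 1 rose and 12 fell in the libraries labelled KO against ctrl (0.885% and 10.6%, against 1.82% and 6.31% of all tested genes), with a median log2FC of -0.28, against 0.05 for all genes. These 13 calls became 8 with total count scaling or the size factors of DESeq2. They became 2, 0 and 5 without KO library 1, 2 and 3, and 9, 2 and 3 without ctrl library 1, 2 and 3. Among soluble enzymes 8 of 43 fell and 0 rose (median -0.57). Ctsc had 208 ± 64.4 CPM in the libraries labelled KO and 809.7 ± 135 CPM in ctrl (log2FC -1.96, SE 0.34, adjusted p = 0.00663), and the call was lost without KO library 2 (adjusted p = 0.0581). Ctsa, the protective protein of 2 other lysosomal enzymes (-2.06), the sphingomyelinase Smpd1 (-2.14) and the acid glucosidase Gaa (-1.88) fell, and Lamtor5 (1.21) rose. Each of these 4 calls was lost without at least 4 of the 6 single libraries, with adjusted p up to 0.0721, 0.159, 0.148 and 0.192. In the membrane, V-ATPase and sorting lists 1 gene each fell, in the TFEB and mTORC1 list 1 rose and 1 fell, and none of the 3 cystatins was called. In mKO and pKO 0 of the 113 genes were called by edgeR, and 9 and 1 had an unadjusted p below 0.05.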

How the data were processed

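The deposited tables hold read counts per gene, made by the authors with tools that, per the submitters' processing notes, include Trim Galore 0.6.10, STAR 2.7.10a and SAMtools 1.12 and the build GRCm38 (mm10); Bowtie2 2.4.2, Picard 2.20.4 and deepTools 3.5.4 are listed as well, with no role given. The counting tool, strand setting and use of T-to-C conversions are not given in the sources used here. In the deposited window counts the third 90-96hpi library holds values that are not all whole and were treated as estimated counts and rounded, and 1 incomplete gene record was dropped.

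Counts were tested with edgeR 4.0.16 in R 4.3.3 (TMM, low counts removed by filterByExpr at min.count 10 and min.total.count 15, robust glmQLFit, Benjamini-Hochberg over all genes tested), fitting all 30 window libraries (16234 of 24551 genes) and all 11 genotype libraries (16694 of 22911 genes) separately. The 16 comparisons were 9 steps, 4 spans and 3 genotype contrasts. SE is the log2 fold change divided by the square root of F. The fit was also run on simulated counts, with spreads taken from the fit itself. These had the same mean in every group apart from the added changes, so they cannot show how the scaling acts between windows. Tried instead, one at a time, were leaving out each library, fitting only the 2 groups compared, a replicate block, keeping low-count genes, scaling by total counts, size factors of DESeq2 1.42.0, and its Wald test. Replicates differed by more than sampling noise (chi-square per degree of freedom at least 4.39). The members, the lists and the grouping of results were chosen with earlier results of these data known. From the lists the 4 highest and 4 lowest log2 fold changes among called genes with at least 20 CPM in the higher group were named, and for likeness the 2 genes with the highest r. Some genes that this rule names are not reported here. The 14 ATAC-seq samples were not used here.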

Additional observations from a re-analysis of the deposited data

Results flagged for a closer look

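A further deposited table, from libraries of 10, 40 and 100 embryos with 2 libraries each, was not part of any comparison above; the labels do not give its stage, and it is held here only in part, so counts are given without a CPM. It holds 5 of the 8 genes, and each had reads in all 6 libraries. Tpp1 had 1469 and 1133 reads with 10 embryos, 1125 and 594 with 40 embryos, and 1681 and 1404 with 100 embryos. Ctsd had between 1582 and 5780 reads, Lamp1 between 1556 and 5052 reads and Lamp2 between 550 and 1696 reads. Ctsz was far lower than these, with 33 to 89 reads. The lowest count of each of the 5 genes came from the same library, 40 embryos replicate 2. Total counts of the records held ran from 5144899 to 11589165 over the 6 libraries, and the part of depth in these counts was not tested.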

How the results depend on the processing

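Of 128 tests of the 8 genes, 73 were called and 61 of these calls held under every alternative, while 12 were lost under at least 1; of the 55 not called, 15 were called under at least 1. Total count scaling reversed Ctsb in 48-54hpi against 30-36hpi (-0.39) and Lamp1 in 30-36hpi against 12-18hpi (0.35); the cause was not tested. The number of the 8 genes called in 0-6hpi against MII was 2 with DESeq2, 2 with total count scaling and 3 without the low-count filter, against 1, and 1 to 3 without single libraries. In 6-12hpi against 0-6hpi it was 1 to 3 without single libraries, and in 12-18hpi against 6-12hpi 4 in the fit of both groups, against 2. In the libraries labelled KO against ctrl it was 1 with total count scaling and 0 to 2 without single libraries, against 2, and in mKO 0 to 1, against 0. Other lysosomal genes called in the libraries labelled KO numbered 8 under total count scaling, 8 under the size factors of DESeq2 and 0 to 9 without single libraries, against 13. In mKO they numbered 1 with DESeq2, 1 without the filter and 0 to 3 without single libraries, against 0. With CPM from total counts 28 of the levels moved by more than their spread and 84 did not.

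Same-numbered replicates are not stated to share an origin, and no comparison with 3 pairs had every correlation of their deviations above 0.1 (0.08, -0.03 and 0.098 in KO against ctrl, and 0.23, 0.21 and -0.00115 in mKO against ctrl). Both pairs of pKO against ctrl were above it (0.22 and 0.21), but 2 pairs were not taken to show pairing, so the replicate block was not used as the main fit. With the block no call of the 8 genes changed, and 2064 genes were called in the libraries labelled KO, against 1358. Low counts limit Ctsz and Hexa up to 18-24hpi and Tpp1 at 48-54hpi, where fold sizes rest on few reads. They also limit Tpp1 at 30-36hpi (33 reads), Hexa at 24-30hpi and 30-36hpi (62 and 83 reads) and Ctsl at 0-6hpi (84 reads).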
